A study of Rattus norvegicus with 24 samples.

Results

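Expression of the genes that write and maintain DNA methylation was examined in rat testis at 2 ages and after dibutyl phthalate (DBP), a plasticizer and anti-androgenic reproductive toxicant in the male rat. The gene set, DNA methylation enzymes, was defined by symbol alone as Dnmt1, Uhrf1, Dnmt3a, Dnmt3b and Dnmt3l. Every probe set annotated with exactly one of these symbols was taken, which gave 5 probe sets for 4 genes among 31042 probe sets and 14217 genes in all. Dnmt1 (1373772_at), Uhrf1 (1378640_at) and Dnmt3b (1385662_at) have 1 probe set each and Dnmt3a has 2, called here the brighter (1384804_at) and the dimmer (1392678_a_at) from their means. Dnmt3l was not analysed here, since no probe set carries its symbol.

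Testis RNA of male Fisher 344 rats was hybridised to Affymetrix Rat230_2 arrays, 24 arrays in 6 groups of 4. The 4 groups of postnatal day 35 (PND35) are named by fetal and then postnatal exposure as DBP-DBP, DBP-oil, oil-DBP and oil-oil; the 2 groups of gestational day 20 (GD20) are GD20 DBP and GD20 oil. Pregnant dams were gavaged daily with 50 mg/kg DBP or with the corn oil vehicle from gestational day 12 to 20, and the DBP fetuses were sampled 6 hours after the last dose. Male offspring were gavaged on PND35 with 500 mg/kg DBP or corn oil and sampled 6 hours later, so corn oil by gavage is common to all groups. PND35 arrays are identified by pup number and GD20 arrays by dam number; the array of oil dam 2 is labelled as pooled. The samples are whole testis, in which fewer cells of a type and less RNA per cell cannot be told apart. The p-values measure the spread between these arrays, and their number limits the precision. The labels give no litters for the pups, and some may share a treated dam. The tests of fetal exposure at PND35 take each pup as independent.

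DNA methylation in mammals is placed on cytosines of CpG pairs. DNMT1, recruited to newly replicated DNA by UHRF1, which recognises hemimethylated CpG, copies the pattern to the new strand. DNMT3A and DNMT3B methylate unmodified DNA, and DNMT3L, which has no catalytic activity, stimulates them. In rodents the prospermatogonia (gonocytes) of the fetal testis are mitotically arrested and regain methylation, including that of paternal imprints and transposons, from late gestation on; mouse DNMT3A and DNMT3L are required for this. At puberty the tubules fill with spermatocytes and spermatids, which have completed premeiotic replication.

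In RefSeq's rat assembly GRCr8 the protein-coding genes lie at chr8:27716797-27763405 (Dnmt1), chr9:1220162-1241792 (Uhrf1), chr6:32507316-32621678 (Dnmt3a) and chr3:162590777-162629313 (Dnmt3b). The same annotation holds a pseudogene, Dnmt3b-ps1, that overlaps Dnmt3b at chr3:162612742-162670784, and further pseudogenes of Dnmt3a and Dnmt3b on other chromosomes. The sources used here do not place the array's probes on these genes, so signal from such copies cannot be separated from that of Dnmt3a and Dnmt3b. The start regions of 3 genes, from 250 bases before to 50 bases after an annotated start, are shown. Dnmt3b also fell with age but has no start region in the source used here. Capitals mark CpG, the pair the encoded enzymes act on. The windows lie inside the spans of their genes given above, so their starts are not the outermost ends of those spans. They are RefSeq sequences of GRCr8, at chr8:27762792-27763091 on the minus strand for Dnmt1, at chr9:1222936-1223235 on the plus strand for the most CpG-rich of 3 Uhrf1 entries, and at chr6:32598352-32598651 on the plus strand for Dnmt3a.
Dnmt1: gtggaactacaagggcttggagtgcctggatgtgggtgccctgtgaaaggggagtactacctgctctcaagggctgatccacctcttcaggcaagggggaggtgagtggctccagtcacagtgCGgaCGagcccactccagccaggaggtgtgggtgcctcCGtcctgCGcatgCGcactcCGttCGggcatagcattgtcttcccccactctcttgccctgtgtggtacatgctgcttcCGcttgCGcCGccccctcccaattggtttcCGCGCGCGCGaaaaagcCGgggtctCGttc
Uhrf1: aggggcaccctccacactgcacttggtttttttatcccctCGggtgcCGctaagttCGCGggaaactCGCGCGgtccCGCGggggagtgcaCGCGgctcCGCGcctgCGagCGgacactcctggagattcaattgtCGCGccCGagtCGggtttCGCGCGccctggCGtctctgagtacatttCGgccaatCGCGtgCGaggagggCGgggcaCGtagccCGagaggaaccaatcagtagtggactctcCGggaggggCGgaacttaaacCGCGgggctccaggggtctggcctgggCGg
Dnmt3a: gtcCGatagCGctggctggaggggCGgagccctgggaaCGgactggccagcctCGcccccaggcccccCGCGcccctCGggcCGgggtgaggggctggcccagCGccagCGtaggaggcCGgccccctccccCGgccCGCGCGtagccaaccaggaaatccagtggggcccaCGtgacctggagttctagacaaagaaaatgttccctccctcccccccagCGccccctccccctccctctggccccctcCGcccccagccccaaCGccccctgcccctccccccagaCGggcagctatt
The Dnmt1 window holds 17 CpG, the Uhrf1 window 35 and the Dnmt3a window 21, and 72.5%, 94.6% and 79% of the 33469 rat windows hold as many or fewer, in that order. The other Uhrf1 entries hold 8 and 13 CpG. The letters TTTCCCGC, a form of the E2F motif, searched on both strands, occur once in the Uhrf1 window and in neither of the other windows printed. The other Uhrf1 entries do not hold them, and 0.974% of all windows do. A second E2F form, TTTGGCGC, is in none of the 3 and in 0.493% of all windows. The GC box GGGCGG, again on either strand, is present in each of the 3, as in 33.1% of all windows, and the CCAAT box in those of Dnmt1 and Uhrf1, as in 37.5% of all windows. These matches describe letters only.

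The tissue labels were set against defining markers. Prm1, a protamine of spermatids, lay between 24720 and 38155 on the PND35 arrays, against 26.5 to 1469 on the GD20 arrays, and the spermatocyte gene Sycp3 between 12302 and 14994 against 1335 to 1981. Prm1 was 1469 in GD20 DBP dam 21 and 116 in dam 19, and 26.5 to 60.1 on the other GD20 arrays. The source of the signal in dam 21 was not tested. Ddx4 (germ cells) and Sox9 (Sertoli cells) lack a probe set of their own in the annotation and were not analysed here. The median intensity of an array was 100.8 to 114.1 at PND35 and 164.4 to 174.5 at GD20, and RNA integrity numbers were 8.2 to 8.9 and 8.6 to 8.8. Signals of the poly-A spike-in controls stood apart in the GD20 DBP arrays of dams 19 and 21 (6.33 and 6.23 on the log2 scale, against 7.74 to 8.33 on the other GD20 arrays). At PND35 they were 6.97 to 7.18 in all DBP-DBP arrays and in DBP-oil pups 132 and 134, and 5.75 to 5.98 in the others, so that this difference and fetal exposure cannot be told apart between DBP-DBP and oil-DBP.

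Of the comparisons made, that of the ages gave the largest differences in these genes: all 5 probe sets were lower at PND35 than at GD20, with no overlap between any PND35 array and any GD20 array. Of all probe sets, 40.5% had oil-oil arrays entirely below the GD20 oil arrays and 37.7% DBP-oil arrays entirely below the GD20 DBP arrays. These shares set 4 arrays against 4, a separation that all 5 members also had. The share of all probe sets with all 16 PND35 arrays below all 8 GD20 arrays was not computed. Intensities below are linear and as deposited; levels are compared within a probe set, since brightness is not comparable between probe sets. Dnmt1, the maintenance methyltransferase, had intensities of 340, 402, 428 and 404 in DBP-DBP pups and 406, 384, 463 and 506 in DBP-oil pups. It had 333, 403, 465 and 421 in oil-DBP pups and 314, 333, 359 and 491 in oil-oil pups. At GD20 it had 1365, 1733, 1356 and 1387 in DBP dams (16, 18, 19 and 21) and 1671, 1782, 1817 and 1672 in oil dams (2, 3, 4 and 5). The 16 pubertal values thus lay together between 314 and 506, while the lowest fetal value was 1356.

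Dnmt1 averaged 374 ± 80.1 in oil-oil testes and 1736 ± 75.4 in GD20 oil testes (SD, n = 4 each), 4.64-fold lower at PND35. Its change of log2(intensity + 16) was -2.19 ± 0.12 (SE; limma with Benjamini-Hochberg adjustment over all probe sets, adjusted p = 6.54e-13). After fetal DBP it averaged 440 ± 55.4 in DBP-oil testes and 1460 ± 182 in GD20 DBP testes, a change of -1.70 ± 0.12 (adjusted p = 4.79e-11). In both lines of exposure the step between ages was several times the spread within a group.

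Uhrf1, the reader of hemimethylated CpG that brings DNMT1 to replicated DNA, had intensities of 459, 498, 529 and 534 in DBP-DBP pups and 466, 582, 521 and 516 in DBP-oil pups. It had 406, 382, 634 and 527 in oil-DBP pups and 383, 642, 377 and 483 in oil-oil pups. At GD20 it had 982, 1709, 1080 and 884 in DBP dams and 1183, 1012, 1070 and 1248 in oil dams. The highest pubertal value of Uhrf1 was 642, in an oil-oil pup, and its lowest fetal value 884, in a DBP dam. The oil-oil testes averaged 471 ± 124 and the GD20 oil testes 1128 ± 107, 2.39-fold lower at PND35, with a log2 change of -1.26 ± 0.17 (limma, adjusted p = 9.8e-07). After fetal DBP the log2 change was -1.09 ± 0.17 (limma, adjusted p = 7.18e-06).

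Dnmt3a, a de novo methyltransferase, was measured by a pair of probe sets. With the brighter probe set the intensities were 51.5, 86.8, 90.3 and 52.5 in DBP-DBP pups and 79.9, 95.9, 55.8 and 95.8 in DBP-oil pups. They were 67.8, 89.7, 74.7 and 62.6 in oil-DBP pups and 103, 62, 130 and 85.2 in oil-oil pups. At GD20 they were 545, 526, 975 and 820 in DBP dams and 673, 530, 563 and 559 in oil dams. All its pubertal values were at or below 130 and all fetal ones at or above 526.

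With the dimmer probe set the intensities were 43.7, 12, 38.5 and 41.8 in DBP-DBP pups and 58.9, 45, 56.7 and 26.9 in DBP-oil pups. They were 8.1, 59.8, 23.6 and 64.1 in oil-DBP pups and 11, 6.12, 60.2 and 42.2 in oil-oil pups. At GD20 they were 333, 318, 343 and 356 in DBP dams and 409, 359, 493 and 419 in oil dams. This probe set was dim at PND35, where 4 of 16 arrays lay under 16, the constant added before log2, and no detection calls accompany the intensities.

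Between oil-oil and GD20 oil testes Dnmt3a fell on both probe sets, by 6.12-fold on the brighter (94.9 ± 28.7 against 581 ± 63.1), while the dimmer averaged 29.9 ± 25.8 against 420 ± 55.4. The log2 changes were -2.46 ± 0.21 (limma, adjusted p = 9.19e-10) and -3.42 ± 0.30 (limma, adjusted p = 1.32e-09); the size of the change on the dimmer depends on the added constant and the scaling and lay between -4.26 and -2.40 over 17 alternatives. After fetal DBP they were -2.88 ± 0.21 (limma, adjusted p = 7.36e-11) and -2.52 ± 0.30 (limma, adjusted p = 1.64e-07).

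Dnmt3b, the other de novo methyltransferase, had intensities of 93.7, 24, 87 and 76.7 in DBP-DBP pups and 96.1, 104, 91.3 and 91.8 in DBP-oil pups. It had 108, 129, 133 and 123 in oil-DBP pups and 104, 42.3, 58.7 and 101 in oil-oil pups. At GD20 it had 250, 287, 277 and 354 in DBP dams and 260, 262, 281 and 203 in oil dams. The highest pubertal value, 133, was in the oil-DBP group, and the lowest fetal value was 203. Oil-oil testes averaged 76.4 ± 30.6 and GD20 oil testes 251 ± 33.4, 3.29-fold lower at PND35, with a log2 change of -1.59 ± 0.21 (limma, adjusted p = 6.31e-07). After fetal DBP it was -1.45 ± 0.21 (limma, adjusted p = 2.35e-06).

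**Figure D1:**
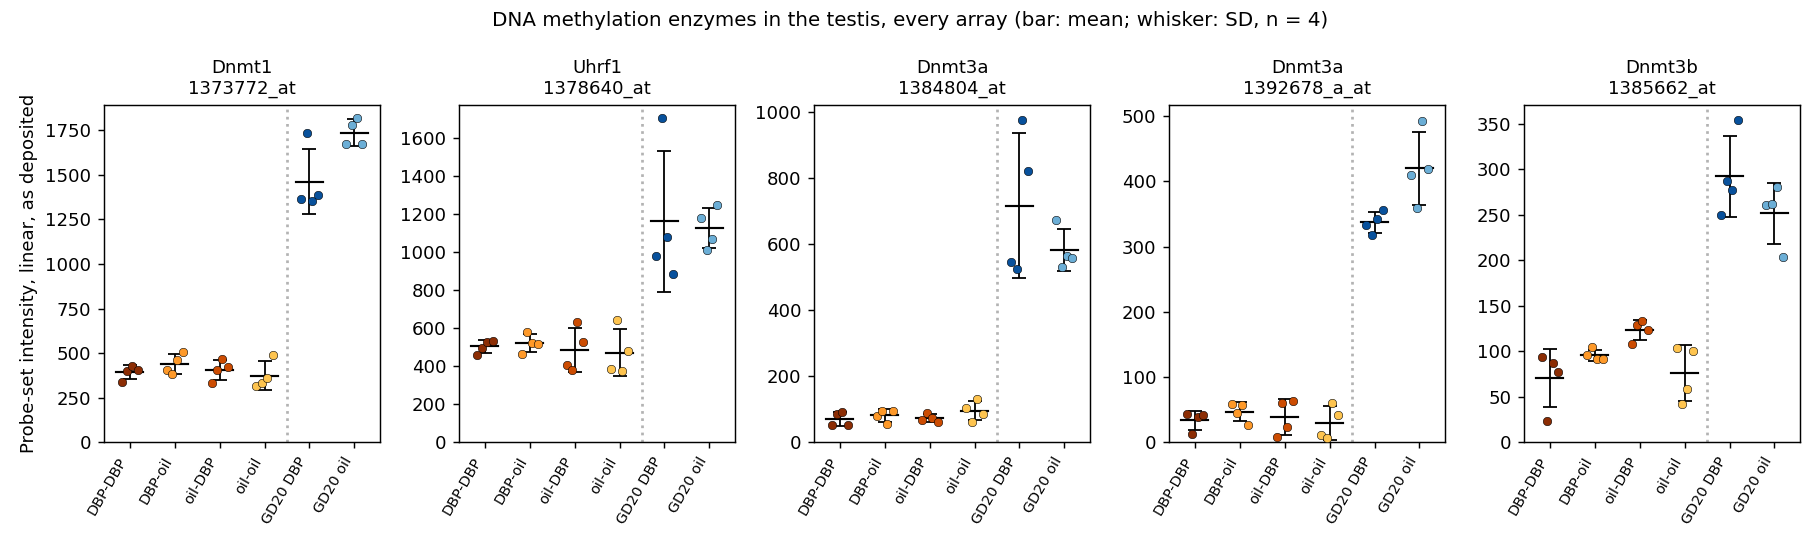
Linear intensity (y axis, from 0) of each member probe set on all 24 arrays, by group (x axis); points are arrays, horizontal bars means and whiskers SD (n = 4). For every probe set the PND35 groups, left of the dotted line, lie below both GD20 groups; Dnmt1 reaches 506 at most at PND35 and 1356 at least at GD20.

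Thus 5 of 5 member probe sets were called lower in each age comparison. Of all probe sets, 43.1% were called lower in the controls and 41.7% after fetal DBP, and the median change of all probe sets was -0.31 in both, so a lower value at PND35 was common on these arrays. The members lay in the lower part of that distribution: 7.65% of all probe sets had a change as low as that of Dnmt1 in the controls, 22.1% one as low as Uhrf1, 5.55% and 1.57% one as low as the Dnmt3a probe sets and 15.6% one as low as Dnmt3b. Array medians were 0.65 lower at PND35 on the log2 scale. With each array centred on its median, 25.2% of all probe sets were called lower in the controls, and the members changed by -1.53 (Dnmt1), -0.60 (Uhrf1), -1.81 and -2.77 (Dnmt3a) and -0.93 (Dnmt3b), each with adjusted p of 0.00425 or lower in limma. After fetal DBP the centred share was 24.8%, and Uhrf1, at -0.49 (limma, adjusted p = 0.0169), again moved least. GD20 RNA was extracted with a micro kit and PND35 RNA by other methods, so age and extraction method cannot be told apart.

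**Figure D2:**
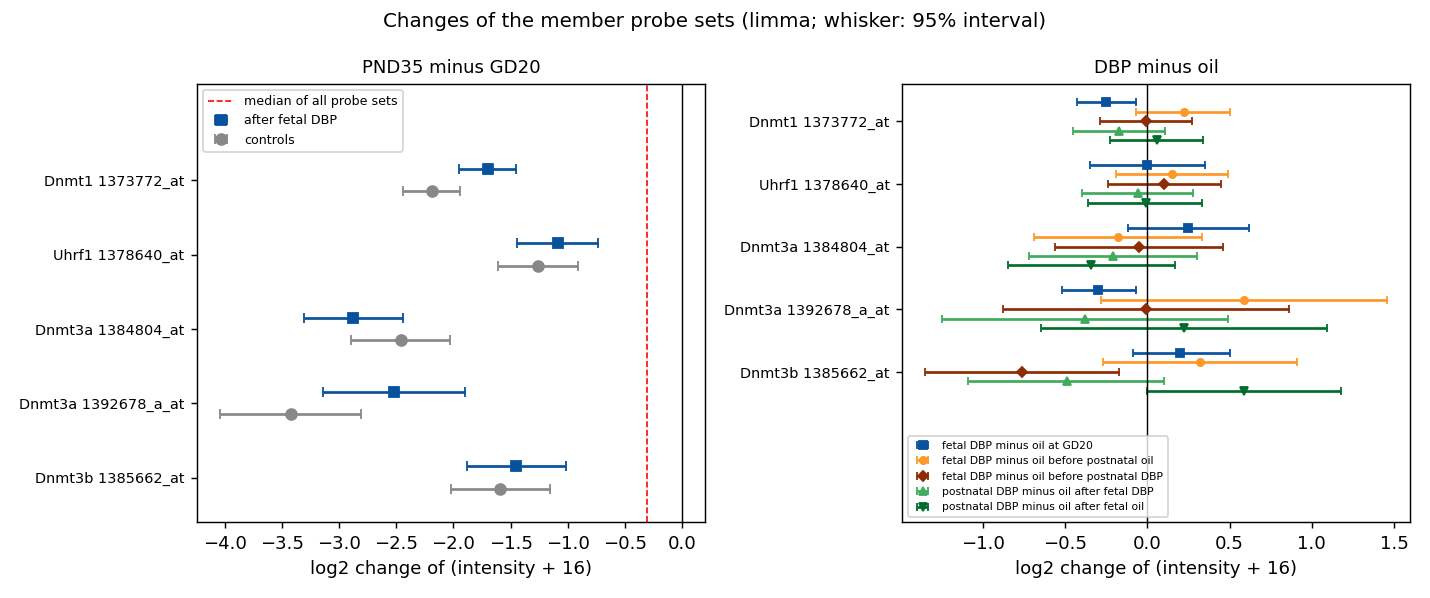
Changes of log2(intensity + 16) per member probe set, with 95% intervals from limma; left, PND35 minus GD20 after fetal DBP (squares) and in controls (circles), with the median of all probe sets (-0.31) dashed; right, the 5 comparisons of DBP with oil. All intervals in the left panel lie below the dashed line, while most of those in the right panel span 0.

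Cell composition differed between the ages at the same time. Summed intensity of 10 spermatid markers was 126388 to 169021 in oil-oil testes and 901 to 1022 in GD20 oil testes, and that of 8 Leydig cell markers 16128 to 22716 and 56628 to 60080. All 10 spermatid and all 7 spermatocyte markers were called higher at PND35 in the controls, while 7 of 8 Leydig, 7 of 10 Sertoli, 5 of 6 peritubular myoid, 4 of 4 endothelium and 4 of 4 blood markers were called lower. The other Leydig marker, Hsd11b1 (+3.12), and the other 3 Sertoli markers, among them Clu (+3.55) and Shbg (+3.00), were called higher, and the summed intensity of the Sertoli markers was 43809 to 53674 in oil-oil testes and 41368 to 42796 in GD20 oil testes. Of 9 gonocyte and spermatogonium markers, 4 were called higher and 3 lower, and their summed intensity was 8095 to 9002 in oil-oil testes against 4686 to 4909 in GD20 oil testes. Of 8 macrophage and leukocyte markers 4 were called lower and 1 higher. Of all genes 44.1% were called lower and 29.4% higher. After median centring 5 Leydig, 7 Sertoli, 5 peritubular myoid, 4 endothelium and 3 blood markers were called lower, with 1, 3, 1, 0 and 0 higher. Gonocyte and spermatogonium markers then gave 1 lower and 4 higher, and macrophage and leukocyte markers 2 each way. The part of cell composition in the lower level of the methylation enzymes was not tested.

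Genes of the enzymes that act against methylation went both ways. Of 13 measured genes of active demethylation and base excision, 7 were called lower and 2 higher in oil-oil against GD20 oil testes (median log2 change -1.26), beside 6275 lower and 4183 higher of 14217 genes (median -0.23). The dioxygenase genes Tet1, Tet2 and Tet3, whose products oxidise methylcytosine, changed by -3.03, -2.05 and -2.66. Tet1 averaged 43.3 ± 15.6 in oil-oil and 457 ± 34 in GD20 oil testes. Tdg, the glycosylase that removes oxidised bases, changed by -1.95. After median centring this list held 6 higher and 6 lower, beside 6969 higher and 3735 lower of 14217 genes. The same share of all genes stands beside the centred counts of the other lists in this comparison. Of the other probe sets of Tet3, 1 changed by -1.77 (limma, adjusted p = 4.43e-06) and the dimmest by -0.71 (limma, adjusted p = 0.0851).

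Of 10 measured genes in a list of methyl-CpG and CpG readers 6 were called lower and 4 higher (median -0.98). Uhrf2, the paralogue of Uhrf1, changed by -1.54, the zinc finger reader Zbtb38 by -2.11 and the methyl-CpG binding gene Mbd2 by -1.30, while Mbd3, a subunit of the NuRD complex, changed by +1.37. After median centring 4 readers were called lower and 4 higher. Among 21 measured partners of the methyltransferases and heterochromatin genes, 16 were called lower and 4 higher (median -0.74), and after median centring 7 and 6. Kdm1b, a histone demethylase that mouse oocytes need to set maternal imprints, averaged 258 ± 36.9 in oil-oil and 5458 ± 293 in GD20 oil testes (log2 change -4.33 ± 0.10; limma, adjusted p = 9.02e-19). Lig1, the DNA ligase of replication, changed by -1.82. Cbx5, a heterochromatin protein, changed by +2.07. Usp7, a deubiquitinase that binds DNMT1 and UHRF1, changed by +1.83 on its brightest probe set and by +0.32 to +1.79 on the others.

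Genes in a list of methyl donor supply were called lower in 11 of 13 cases and higher in 0 (median -0.93). Mthfd1 of the folate cycle changed by -2.98, Cbs of transsulfuration by -2.68 and the S-adenosylmethionine synthetase gene Mat1a by -1.91. Ahcyl1, also in the list, changed by -1.20, and its own part in methyl donor supply was not tested. After median centring this list held 6 lower and 2 higher. Replication and cell cycle genes were called lower in 16 of 22 cases and higher in 5 (median -1.38), with Ccna2 (cyclin A) at -3.05, the helicase subunit Mcm4 at -2.89, the licensing factor Cdt1 at -2.85 and the thymidine kinase Tk1 at -2.70; after median centring 14 were called lower and 6 higher. The piRNA pathway, which in fetal mouse germ cells directs methylation to transposons, went the other way: 6 of 6 measured genes were called higher (median 1.63), under each scaling tried. Tdrd7 averaged 9709 ± 842 in oil-oil and 771 ± 99.7 in GD20 oil testes (log2 change 3.63), and Tdrd1, Asz1 and Piwil2 changed by 2.75, 1.66 and 1.59. The 4 measured member genes had a median change of -1.89 and all were called lower under each scaling tried.

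After fetal DBP the same lists gave 9 lower and 2 higher (demethylation), 6 and 4 (readers), 14 and 5 (partners), 8 and 0 (methyl donors), 16 and 5 (replication) and 0 and 6 (piRNA), beside 6298 lower and 4093 higher of all genes. After median centring they gave 7 lower and 4 higher (demethylation), 4 and 4 (readers), 7 and 7 (partners), 6 and 3 (methyl donors), 15 and 6 (replication) and 0 and 6 (piRNA), beside 3908 lower and 6561 higher of all genes. As deposited, Kdm1b changed by -4.26 there, Tet1 by -3.27, Cbs by -3.40 and Tdrd7 by 3.71.

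**Figure D3:**
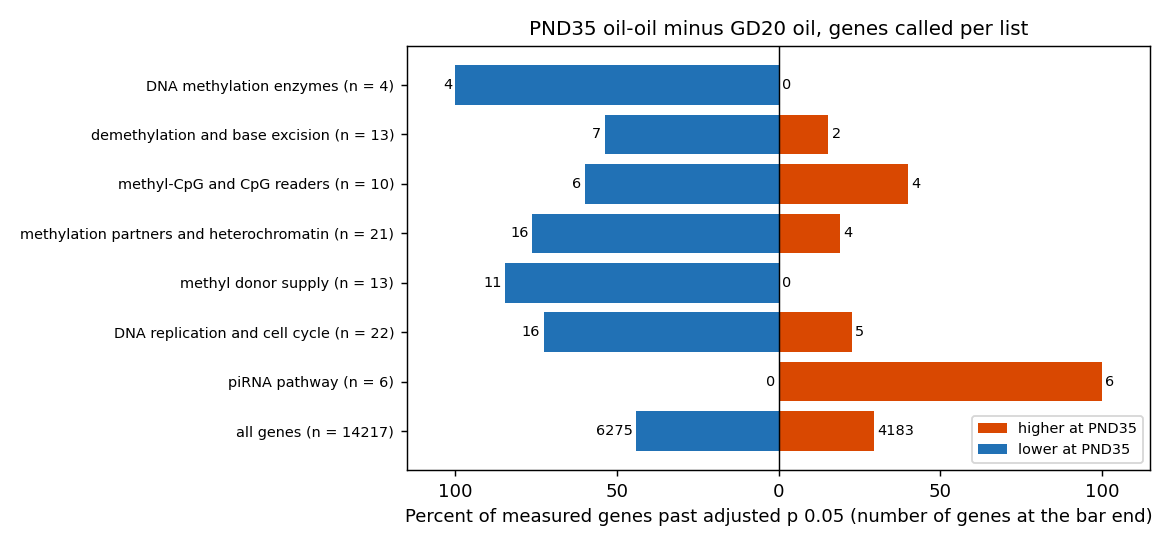
Percent of measured genes called higher (right of 0) or lower (left of 0) at PND35 in oil-oil against GD20 oil testes for each list, with the number of genes at the bar end. All 4 measured methylation enzymes and 11 of 13 methyl donor genes lie on the lower side, and 6 of 6 piRNA genes on the higher side.

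At GD20 the question was whether fetal DBP changes the level of these genes while gonocytes remethylate. None of the 5 member probe sets was called (0 of 5), where limma called 0.441% of all probe sets, 137 in number; at an unadjusted p under 0.05 there were 2 members and 11.8% of all probe sets. Dnmt1 was 1460 ± 182 in GD20 DBP and 1736 ± 75.4 in GD20 oil testes, a log2 change of -0.25 ± 0.08 (95% interval -0.43 to -0.07; limma, adjusted p = 0.251). Dams 16, 19 and 21 lay below every oil dam, and dam 18, at 1733, lay within the oil range of 1671 to 1817. Without dam 18 the change of Dnmt1 was -0.34 (limma, adjusted p = 0.0428), past the threshold. Without dams 19 and 21, the arrays of low spike-in signal, it was -0.17 and not called. Over the 17 alternatives the adjusted p in limma lay between 0.0428 and 0.517.

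Dnmt3a gave opposite signs with its probe sets. On the dimmer all 4 DBP dams (318 to 356) lay below all 4 oil dams (359 to 493), with a log2 change of -0.30 ± 0.10 (limma, adjusted p = 0.287); 4% of all probe sets had DBP arrays entirely below the oil arrays. On the brighter the change was +0.25 ± 0.17 (limma, adjusted p = 0.61), and the groups overlapped. Dams 19 and 21, at 975 and 820, lay above the others (526 to 673), and without them the change of the brighter probe set was -0.11. The same arrays had the low spike-in signal, summed Sertoli markers of 46271 and 48075 against 38757 to 42796 on the other GD20 arrays, and summed spermatid markers of 1290 and 5649 against 901 to 1087. The part of these in the Dnmt3a difference was not tested.

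The difference between the Dnmt3a probe sets within an array, brighter minus dimmer in log2, a measure chosen after the values were seen, was 1.01 ± 0.38 in GD20 DBP and 0.46 ± 0.22 in GD20 oil testes (SD, n = 4 each). An exact permutation test of this difference gave p = 0.0571, where the smallest possible p is 0.0286. After Benjamini-Hochberg adjustment over the 5 pairs of groups compared in this way it was 0.143. Between ages in the controls the measure was 1.42 ± 0.65 in oil-oil and 0.46 ± 0.22 in GD20 oil testes (same test, adjusted p = 0.143). No pair had a lower adjusted p, and since the measure was chosen afterwards it is given as a description.

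**Figure D4:**
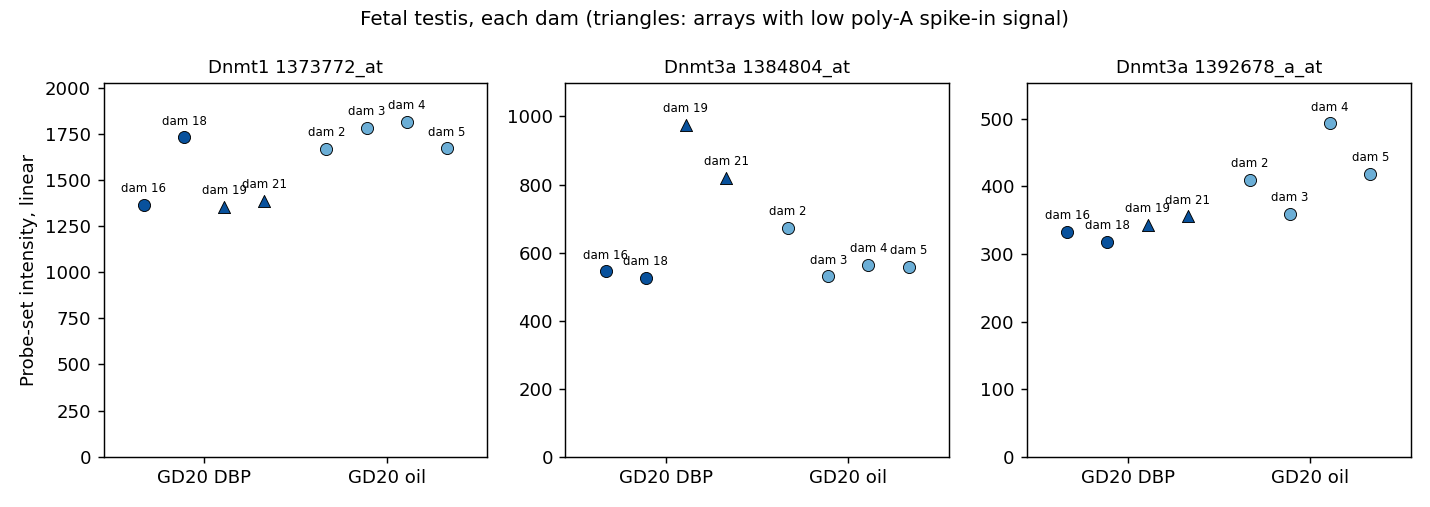
Linear intensity (y axis, from 0) of Dnmt1 and of both Dnmt3a probe sets in each GD20 array, DBP dams left and oil dams right; triangles are arrays with low poly-A spike-in signal. Dnmt1 of dam 18 (1733) lies among the oil dams, and dams 19 and 21 are the highest for the brighter Dnmt3a probe set (975 and 820) but not for the dimmer.

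Dnmt3b averaged 292 ± 44.4 in GD20 DBP and 251 ± 33.4 in GD20 oil testes (log2 change 0.20 ± 0.14; limma, adjusted p = 0.599). Uhrf1 averaged 1163 ± 372 and 1128 ± 107, with a log2 change of 0.00 (95% interval -0.35 to 0.35), and dam 18 stood at 1709, against 884 to 1080 in the other DBP dams. No gene of the demethylation, reader, partner, piRNA, methyl donor and replication lists was called at GD20 (0 of 13, 10, 21, 6, 13 and 22; limma, 78 of 14217 genes called). At an unadjusted p under 0.05 these lists held 3, 1, 4, 0, 5 and 5 genes, in the same order, beside 11.8% of all probe sets.

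Whether fetal DBP altered the fall with age was tested as the difference of the age changes. No member was called (0 of 5, beside 0.226% of all probe sets in limma); at an unadjusted p under 0.05 there were 2 members and 12.1% of all probe sets. The fall of Dnmt1 was smaller by 0.49 ± 0.17 log2 after fetal DBP (95% interval 0.14 to 0.84; limma, adjusted p = 0.24), and that of the dimmer Dnmt3a probe set by 0.90 ± 0.42 (limma, adjusted p = 0.397). On the brighter probe set the fall of Dnmt3a was larger, with a difference of -0.42 ± 0.30 (limma, adjusted p = 0.616). Uhrf1 (0.17 ± 0.24) and Dnmt3b (0.14 ± 0.29) had intervals that include 0.

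Postnatal DBP, 6 hours before sampling, left all members uncalled. After fetal oil 0 of 5 members were called, beside 8.92% of all probe sets (2770) in limma. At an unadjusted p under 0.05 there were 0 members and 24.1% of all probe sets. Dnmt3b was the member furthest from 0: all 4 oil-DBP pups (108 to 133) lay above all 4 oil-oil pups (42.3 to 104), a log2 change of 0.59 ± 0.28 (95% interval 0 to 1.18; limma, adjusted p = 0.211). Of all probe sets 6.49% had oil-DBP arrays entirely above the oil-oil arrays. The log2 changes were 0.06 ± 0.14 for Dnmt1, -0.01 ± 0.16 for Uhrf1 and -0.34 ± 0.24 and 0.22 ± 0.42 for the Dnmt3a probe sets.

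After fetal DBP postnatal DBP again left 0 of 5 members called, beside 5.23% of all probe sets (1623) in limma. At an unadjusted p under 0.05 there were 0 members and 14.9% of all probe sets. Dnmt3b was 70.4 ± 31.7 in DBP-DBP and 95.9 ± 6.03 in DBP-oil testes, a log2 change of -0.49 ± 0.28 (limma, adjusted p = 0.46), and pup 128 was the lowest at 24. Without pup 128 the change was -0.17. The log2 changes were -0.17 ± 0.14 for Dnmt1, -0.06 ± 0.16 for Uhrf1 and -0.21 ± 0.24 and -0.38 ± 0.42 for the Dnmt3a probe sets.

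The interaction of the exposures was -1.08 ± 0.40 for Dnmt3b (95% interval -1.92 to -0.24; limma, adjusted p = 0.954), and limma called 0 members and 0 of all probe sets, with 4.72% of them and 1 member, Dnmt3b, at an unadjusted p under 0.05. Without pup 128 it was -0.76. With fetal DBP before postnatal DBP, Dnmt3b was 70.4 ± 31.7 in DBP-DBP and 123 ± 11 in oil-DBP testes, with no overlap (24 to 93.7 against 108 to 133), a log2 change of -0.76 ± 0.28 (limma, adjusted p = 0.413). Without pup 128 it was -0.44. In that comparison 2.63% of all probe sets had DBP-DBP arrays entirely below the oil-DBP arrays, and limma called 0 of them, with 8.99% and 1 member, Dnmt3b, at an unadjusted p under 0.05. With fetal DBP before postnatal oil, limma called 1 probe set, 0.00322%, which carries no gene symbol, and 0 members. At an unadjusted p under 0.05 there were 0 members and 7.41% of all probe sets. The log2 changes were 0.22 ± 0.14 for Dnmt1, 0.15 ± 0.16 for Uhrf1, -0.18 ± 0.24 and 0.59 ± 0.42 for Dnmt3a and 0.32 ± 0.28 for Dnmt3b. These comparisons at PND35 share groups and are not independent.

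Of the 85 genes measured in the other 6 lists, 10 were called after fetal oil (11.8%), beside 12.1% of all genes. Gadd45b, a stress-induced gene tied to active demethylation, averaged 1011 ± 392 in oil-DBP and 137 ± 28.8 in oil-oil testes (log2 change 2.62 ± 0.21; limma, adjusted p = 2.61e-08), and 978 ± 85.8 in DBP-DBP and 161 ± 46 in DBP-oil testes (2.50 ± 0.21; adjusted p = 5.29e-08). Tet3 averaged 340 ± 136 in oil-DBP and 103 ± 48.4 in oil-oil testes (1.52 ± 0.29; limma, adjusted p = 0.00171), and 240 ± 85 in DBP-DBP and 98.3 ± 24.7 in DBP-oil testes (1.11 ± 0.29; adjusted p = 0.0273). Its other probe sets changed by 0.82 and 1.03 after fetal oil and by 0.95 and 0.32 after fetal DBP, with adjusted p between 0.0613 and 0.747 in limma. Gadd45a rose by 0.88 log2 after fetal oil. In all 3 of 13 demethylation genes were called higher after fetal oil and 2 after fetal DBP, with 0 lower, beside 876 higher and 850 lower, and 733 higher and 311 lower, of 14217 genes.

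Zbtb38 rose by 0.81 and 0.99 log2 and was the only gene called among 10 readers in either comparison. Of 13 methyl donor genes 2 were called higher and 2 lower after fetal oil, and 1 each way after fetal DBP. Mthfd1 fell to 296 ± 61.8 in oil-DBP testes, against 520 ± 48.8 in oil-oil testes, and Mat2a, which makes S-adenosylmethionine outside the liver, rose by 0.30 and 0.35 log2. The other Mat2a probe sets changed by 0.56 and -0.08 after fetal oil and by 0.25 and -0.47 after fetal DBP. Mat2b, the regulatory subunit of S-adenosylmethionine synthetase, changed by 0.57 and the serine hydroxymethyltransferase gene Shmt1 by -0.42 after fetal oil, where Shmt1 was not called without centring (limma, adjusted p = 0.0559). Tk1 (-0.60) and Mcm7 (-0.29) were lower after fetal oil, the only called genes of 22 in the replication list, and after fetal DBP 0 of 22 were called (1 at an unadjusted p under 0.05). The other Tk1 probe sets changed by -0.25 and -0.04 (limma, adjusted p = 0.391 and 0.97). With quantile normalization Mcm7 was not called (limma, adjusted p = 0.122). Of 21 partners and 6 piRNA genes 0 were called in either comparison. At an unadjusted p under 0.05 there were 4 and 3 after fetal oil, and 3 and 1 after fetal DBP. Of all probe sets 24.1% passed that threshold after fetal oil and 14.9% after fetal DBP. Peritubular myoid markers were higher in 4 of 6 cases after fetal oil and 5 of 6 after fetal DBP, and Leydig markers lower in 4 of 8 and 2 of 8. Of the Leydig markers 1, Star (+1.11; limma, adjusted p = 0.0382), was called higher after fetal oil, where 5 of 10 spermatid markers were called lower (median -0.41), and 0 of 10 after fetal DBP. The part of cell composition was not tested.

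Over all 24 arrays every pair of member probe sets had a positive correlation. Pearson's r was taken on log2 values with each array centred on its median, as a description over arrays that share 2 ages. It was 0.91 and 0.92 between Dnmt1 and the Dnmt3a probe sets, 0.78 between Dnmt1 and Uhrf1, and 0.87 between the Dnmt3a probe sets. It was 0.63 between Uhrf1 and each Dnmt3a probe set, 0.44 between Uhrf1 and Dnmt3b, and 0.68 to 0.75 between Dnmt3b and the other probe sets. Over the 16 PND35 arrays the r of Dnmt1 with the Dnmt3a probe sets and Uhrf1 and that between the Dnmt3a probe sets were 0.01, 0.37, 0.40 and 0. Over the 8 GD20 arrays Dnmt1 gave -0.74 with the brighter Dnmt3a probe set, 0.42 with the dimmer and 0.49 with Uhrf1. The Dnmt3a probe sets gave -0.24 with each other there. The genes most like each member over the 24 arrays were Casp2, Map3k4 and Grb10 for Dnmt1 (r from 0.981 to 0.984), Eid1, Selenom and Nme4 for Dnmt3a (0.973 to 0.977), Iars1, Zcchc14 and Trim59 for Uhrf1 (0.843 to 0.868) and Polr3g, Ocel1 and Ccm2l for Dnmt3b (0.841 to 0.848), among 10635 genes. Within PND35, Cript, Casp2 and Xpo1 were most like Dnmt1 (0.886 to 0.898), Cmc1 most like Dnmt3a (0.793), Mast2 most like Uhrf1 (0.814) and Map6 most like Dnmt3b (0.758), among 9869 genes.

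Every probe set had both GD20 groups on top; GD20 oil stood above GD20 DBP for Dnmt1 and the dimmer Dnmt3a probe set, and GD20 DBP above GD20 oil for Uhrf1, the brighter Dnmt3a probe set and Dnmt3b. The change of Uhrf1 was -0.20 without dam 18 and that of the brighter Dnmt3a probe set -0.11 without dams 19 and 21, so their order rests on those dams. Among the PND35 groups, neighbours in the order overlapped in their arrays for Dnmt1, Uhrf1 and both Dnmt3a probe sets, and for Dnmt3b except between oil-DBP, the highest, and DBP-oil. DBP-oil was the highest PND35 group for Dnmt1 (440), Uhrf1 (521) and the dimmer Dnmt3a probe set (46.9), and oil-oil for the brighter (94.9).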

How the data were processed

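Per the labels' protocols, testis RNA was biotin-labelled and hybridised to 1 array per sample, with GCOS 1.0 named in the submitters' processing notes. The values deposited by the authors are linear probe-set intensity, with a 2% trimmed mean of 500.135 to 500.194 on every array. The summarization algorithm and detection calls are not given in the sources used here. Of 31099 probe sets, 57 controls were left out. Probe sets carry 1 symbol (20826), several (436) or none (9780) in the platform annotation, and where a list gene has several, the one with the highest mean stands for it.

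Differences were tested on log2(intensity + 16) with limma 3.58.1 in R 4.3.3 (lmFit, eBayes with trend), as two-sided tests with Benjamini-Hochberg adjustment over all 31042 probe sets; "called" means adjusted p under 0.05. The pseudocount understates changes of dim genes. Between 12.1% and 19.4% of probe sets per array lay under 16. Arrays were centred on their medians in the PND35 comparisons and for correlations, and left as deposited in the tests at GD20 and between ages. Errors are SE for log2 changes and SD for intensities. The scripts were tested on simulated data. The members, lists and tests were chosen with earlier results of these data known. Named genes are all members, up to 4 called genes per list and comparison with the largest change, the 3 genes most like each member, and Prm1, Sycp3, Ddx4 and Sox9; Hsd11b1, Clu, Shbg, Star and the further probe sets of a named gene were chosen after their values were seen. Alternatives were other scalings, pseudocounts of 1 and 64, a filter on dim probe sets, no trend, fits of only the 8 arrays compared, RNA integrity number as a term, blocks of neighbouring pups, and leaving out single arrays or those extracted with Trizol. Leaving out dams 19 and 21 in the age comparisons, and the Dnmt3a probe-set difference, were added after the data were seen.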

Additional observations from a re-analysis of the deposited data

Results flagged for a closer look

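In 30 groups of 4 values (5 probe sets in 6 groups) the highest and the lowest array were set against the others by Dixon's criterion, which chance meets in about 1 group of 20. Dnmt1 of GD20 DBP dam 18, at 1733, lay above the other 3 DBP dams, at 1356 to 1387, with a gap of 0.918 of the whole range. The dimmer Dnmt3a probe set in DBP-DBP pup 128, at 12, lay below the other 3 pups, at 38.5 to 43.7, with a gap of 0.838 of the range; this value is under the added constant of 16. Pup 128 was also the lowest of its group for Dnmt3b, at 24 against 76.7 to 93.7, and dam 18 the highest of its group for Uhrf1, at 1709.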

How the results depend on the processing

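The fall of the 5 member probe sets with age was called under every alternative run, in 175 of 175 values of both age comparisons, with a highest adjusted p of 0.0169 in limma (Uhrf1 after fetal DBP, median centring). Among 705 alternative values of the exposure comparisons and differences, 1 was called (Dnmt1 at GD20 without dam 18) and 36 had the opposite sign of a value that was itself not called. Dam and pup numbers are not shared between groups. Neighbouring pup numbers, which the labels do not tie to litters, were taken as a block and gave 3114 called probe sets for postnatal DBP after fetal oil and 1655 after fetal DBP, against 2770 and 1623, with 0 members called. This block was not fitted for the comparisons of fetal DBP with oil at PND35 or for the difference of age changes.

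Between ages the share of calls that were higher moved from 32.2% in controls as deposited to 62.3% with median centring, 46.2% with quantile normalization and 44.8% with 75th percentile centring, and after fetal DBP from 33% to 61.2%, 46.6% and 43%. It was 47.4% at GD20 as deposited, and 67.8% with median and 61.3% with 75th percentile centring; 53.5% for postnatal DBP after fetal oil, and 69.2% as deposited; and 70% for the difference of age changes, and 42.2%, 51.1% and 45% with median, quantile and 75th percentile scaling. The count of called probe sets at GD20 was 10 without the trend, against 137. After fetal oil, postnatal DBP gave 1541 with only the 8 arrays compared and 1508 with the RNA integrity number as covariate, against 2770. Fetal DBP before postnatal oil gave 14 with that covariate and 0 without the trend, with only 8 arrays, without the Trizol arrays and within 1 spike-in class, against 1. Fetal DBP before postnatal DBP gave 3 as deposited, 7 with quantile normalization, 1 with 75th percentile centring, 11 without dim probe sets, 1 without the trend, 63 with the integrity number and 1 without the Trizol arrays, against 0. The difference of the age changes gave 118 without dim probe sets, 8 without the trend and 17 with the integrity number, against 70.

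With 1 array left out, counts lay between 29 and 175 at GD20 (lowest without oil dam 5), 1597 and 4607 for postnatal DBP after fetal oil (without oil-DBP pups 111 and 105), 1097 and 1519 after fetal DBP, 0 and 14 for fetal DBP with postnatal oil, 0 and 35 with postnatal DBP, 0 and 0 for the interaction, and 20 and 127 for the difference of age changes. Member calls at GD20 lay between 0 and 1.

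Signs turned as follows, all in values that were not called. At GD20 the brighter Dnmt3a probe set was -0.11 without dams 19 and 21. For postnatal DBP after fetal oil, Uhrf1 was 0.05 as deposited and 0.07 with the integrity number, and Dnmt1 was -0.02 with it and -0.10 without the Trizol arrays. For fetal DBP before postnatal DBP, the dimmer Dnmt3a probe set was 0.05 with quantile normalization and 0.07 with a pseudocount of 1, and Dnmt1 was 0.06 without the Trizol arrays. The interaction of Uhrf1 was 0.19 without the Trizol arrays, and the difference of age changes was -0.09 for Dnmt3b with the integrity number and -0.03 for Uhrf1 without dams 19 and 21. With 1 array left out, ranges that cross 0 were, for postnatal DBP after fetal oil, Dnmt1 -0.03 to 0.19, Uhrf1 -0.15 to 0.15 and the dimmer Dnmt3a probe set -0.06 to 0.55. They were, for fetal DBP before postnatal DBP, Dnmt1 -0.08 to 0.06, Uhrf1 -0.02 to 0.24, and Dnmt3a -0.16 to 0.05 (brighter) and -0.34 to 0.24 (dimmer). For the interaction they were the brighter Dnmt3a probe set -0.02 to 0.28 and Uhrf1 -0.21 to 0.09; at GD20 Uhrf1 -0.20 to 0.12; and for the difference of age changes Dnmt3b -0.06 to 0.28. The cause was not tested. The filter on dim probe sets removes both Dnmt3a probe sets at PND35, so they have no value there.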
